A study of Mus musculus with 24 samples.

Results

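Collagen genes were taken as every gene of the count table whose symbol is Col, digits, the letter a and digits. The rule gave 44 of 37991 genes. They fall into 11 fibrillar collagens, 6 basement membrane (type IV) collagens and 27 other collagens, and 42 of the 44 passed the filter on low counts. The other two, Col9a1 and Col9a2, which encode chains of the cartilage collagen IX, stayed at or below 0.189 CPM and 1.24 CPM in every library and were not tested. The study measured messenger RNA in subcutaneous inguinal fat of female mice aged 26 weeks, 1 RNA-seq library per mouse, to compare strains and diets. The strains were WSB/EiJ and CAST/EiJ, both inbred from wild-caught mice, NZO/HiLtJ, the New Zealand Obese strain, and C57BL/6J, the common laboratory strain. Each strain gave 3 mice on a high-fat, high-sucrose diet (45% of energy from fat and 34% sucrose by weight, called the high-fat diet from here on) and 3 mice on a standard diet (17% of energy from fat). Both diets began at 4 weeks of age, and no group carried a transgene or a drug. Every library had 1 lane label, which does not show whether batches differed between groups, and no batch was modelled. Mice of a group are numbered 1 to 3 as names only.

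Collagens are proteins of the extracellular matrix in which 3 chains wind into a triple helix. Fibrillar collagens such as types I, III and V assemble into the fibrils that give connective tissue its strength. Type IV collagen forms the sheet-like network of basement membranes, which in fat surround each adipocyte and each blood vessel, and type VI collagen forms beaded filaments that link cells to the surrounding matrix. In adipose tissue fibroblasts and adipocyte precursors make most fibrillar collagen, adipocytes and endothelial cells contribute basement membrane chains, and a build-up of types I, III and VI is known as adipose fibrosis.

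Libraries held 47651641 to 84009032 counts, and collagen genes took 0.28% to 1.561% of them. Some libraries stood apart in their cell markers. The summed level of 5 adipocyte markers was 53.89 CPM (the count scaled to a common library total) in high-fat CAST/EiJ mouse 1 and at least 3555 CPM in each of the other 23 libraries. That library held 10860 CPM of 6 smooth muscle markers and 4017 CPM of 4 kidney markers. Epcam, a marker of epithelial cells, was at 5 CPM or more in 6 libraries, which were all 3 WSB/EiJ high-fat libraries, high-fat CAST/EiJ mouse 1, high-fat C57BL/6J mouse 1 and standard WSB/EiJ mouse 3. Liver markers summed to 11.92 to 35 CPM in NZO/HiLtJ high-fat mice against 126.5 to 1273 CPM in standard-diet mice, and to 117 to 276.8 against 23.15 to 42.74 CPM in WSB/EiJ. The reproductive tract sum was highest in high-fat CAST/EiJ mouse 1, at 662.7 CPM. In WSB/EiJ it was 474.4, 295.8 and 94.04 CPM after the high-fat diet, against 101.7, 107.3 and 164.4 CPM after the standard diet. It was 237.2 CPM in high-fat C57BL/6J mouse 1. Sums reached at most 359.8 CPM for mesothelium and 26.03 CPM for lymphocyte markers. High-fat WSB/EiJ mouse 2 held 2345 CPM of brain and nerve markers, high-fat WSB/EiJ mouse 3 held 919.9 CPM of urothelial markers, and standard CAST/EiJ mouse 2 held 3988 CPM of skeletal muscle markers. Results are therefore also given without the 6 libraries, which removes the whole WSB/EiJ high-fat group, and without high-fat CAST/EiJ mouse 1 alone. In bulk RNA, fewer cells of a type and less RNA per cell cannot be told apart.

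Levels of different genes were compared per kilobase (kb) of the longest coding transcript. Over all 24 libraries Col3a1 had the highest mean level, 315 CPM per kb, and encodes the single chain of type III collagen. It was followed by Col6a1 (182 CPM per kb), Col6a2 (151), Col1a2 (148), Col15a1 (139), Col4a1 (84.7), Col1a1 (73.1), Col4a2 (64.6), Col6a3 (61.3) and Col5a2 (34.9). The order of Col6a2, Col1a2 and Col15a1 rested on the transcript length used, since with the merged exons of each gene they stood at 117, 148 and 120 CPM per kb. The cartilage genes Col9a1, Col9a2 and Col2a1 were the lowest. Markers of cartilage summed to at most 10.28 CPM in any library.

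The collagens together reached 1625 ± 373 CPM per kb in WSB/EiJ high-fat mice and 847 ± 77.5 in WSB/EiJ standard-diet mice (SD, n = 3 here and below). The sums were 1518 ± 689 in CAST/EiJ high-fat mice and 765 ± 237 in CAST/EiJ standard-diet mice. In NZO/HiLtJ mice they were 1907 ± 209 on the high-fat and 1981 ± 105 on the standard diet, and in C57BL/6J mice 1353 ± 389 and 1362 ± 9.90. The fibrillar class held the largest share of this sum in both wild-derived strains, 55.5% ± 4.08 against 52.2% ± 2.35 in WSB/EiJ and 51.2% ± 0.524 against 45.7% ± 4.83 in CAST/EiJ (high-fat against standard). In NZO/HiLtJ its share was 37.3% ± 2.45 against 35.0% ± 1.91, and in C57BL/6J 41.7% ± 7.67 against 40.3% ± 5.56. Type IV chains made up 6.27% ± 2.53 against 10.5% ± 1.70 in WSB/EiJ, 9.58% ± 2.33 against 17.3% ± 3.84 in CAST/EiJ, 14.1% ± 0.724 against 14.9% ± 0.412 in NZO/HiLtJ and 11.5% ± 1.56 against 10.3% ± 0.743 in C57BL/6J.

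Averaged over the 4 strains, 22 of the 42 tested collagens were higher on the high-fat diet and none was lower, at an adjusted p below 0.05 in edgeR's quasi-likelihood test with Benjamini-Hochberg adjustment over all 20035 genes. Of all tested genes 17.1% were higher and 11.8% lower, 28.9% in all. The median log2 fold change of the collagens was 0.63, beside 0.05 for all genes. Called members were 9 of 11 fibrillar genes (median log2 fold change 0.86), 2 of 6 type IV genes (0.24) and 11 of 25 other genes (0.73). Without the 6 libraries 4 collagens were called over the 3 strains that remained, Col6a5, Col16a1 and Col8a2 higher and Col4a3 lower. The share of all genes called in that fit is not given here.

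The count differed between strains. In WSB/EiJ 13 collagens rose and 2 fell, where 12.9% of all genes rose and 8.61% fell (21.5% in all). CAST/EiJ had 7 higher collagens and none lower, beside 3.27% of genes higher and 1.6% lower (4.87% in all), NZO/HiLtJ had 1 higher and none lower, beside 2.95% and 1.94% (4.89% in all), and C57BL/6J had none, beside 0.00998% of genes called in any direction. For C57BL/6J, 4 of 42 collagens had an unadjusted p below 0.05 (3.66% of all genes did), and DESeq2 and limma-voom also called none. Median log2 fold changes of the collagens were 0.95 in WSB/EiJ, 0.95 in CAST/EiJ, 0.25 in NZO/HiLtJ and 0.13 in C57BL/6J, where those of all genes were 0.07, 0.05, -0.01 and 0.02. The high-fat and standard libraries did not overlap for 18 members in WSB/EiJ (40.0% of all genes), 12 in CAST/EiJ (20.0%), 19 in NZO/HiLtJ (46.5%) and 1 in C57BL/6J (10.8%). An F test of whether the diet effect differed between strains called 2 collagens, Col6a5 and Col1a1, and 3.08% of all genes.

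Both counts in the wild-derived strains moved with single libraries. The share of all genes called in each fit with 1 library left out is not given here. Without one WSB/EiJ library at a time, the WSB/EiJ count of 15 became 10, 5 and 14 (high-fat mice 1, 2 and 3) and 0, 3 and 12 (standard mice 1, 2 and 3). The CAST/EiJ count of 7 became 0 without high-fat mouse 1 or any 1 of the 3 standard mice, 12 without high-fat mouse 2 and 17 without high-fat mouse 3. It became 1 without any 1 NZO/HiLtJ library, any 1 C57BL/6J standard library or standard mouse 1 or 2 of WSB/EiJ, and 3 without high-fat mouse 1 or standard mouse 3 of WSB/EiJ. The NZO/HiLtJ count of 1 became 3 without high-fat CAST/EiJ mouse 1, with Col4a4 and Col4a3 lower, and that of C57BL/6J was 0 in each of the 24 fits. The count of 2 for the difference between strains became 7 without high-fat CAST/EiJ mouse 1, 5 without high-fat mouse 3 of CAST/EiJ or of WSB/EiJ, and 1, Col6a5, in most other fits.

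**Figure D1:**
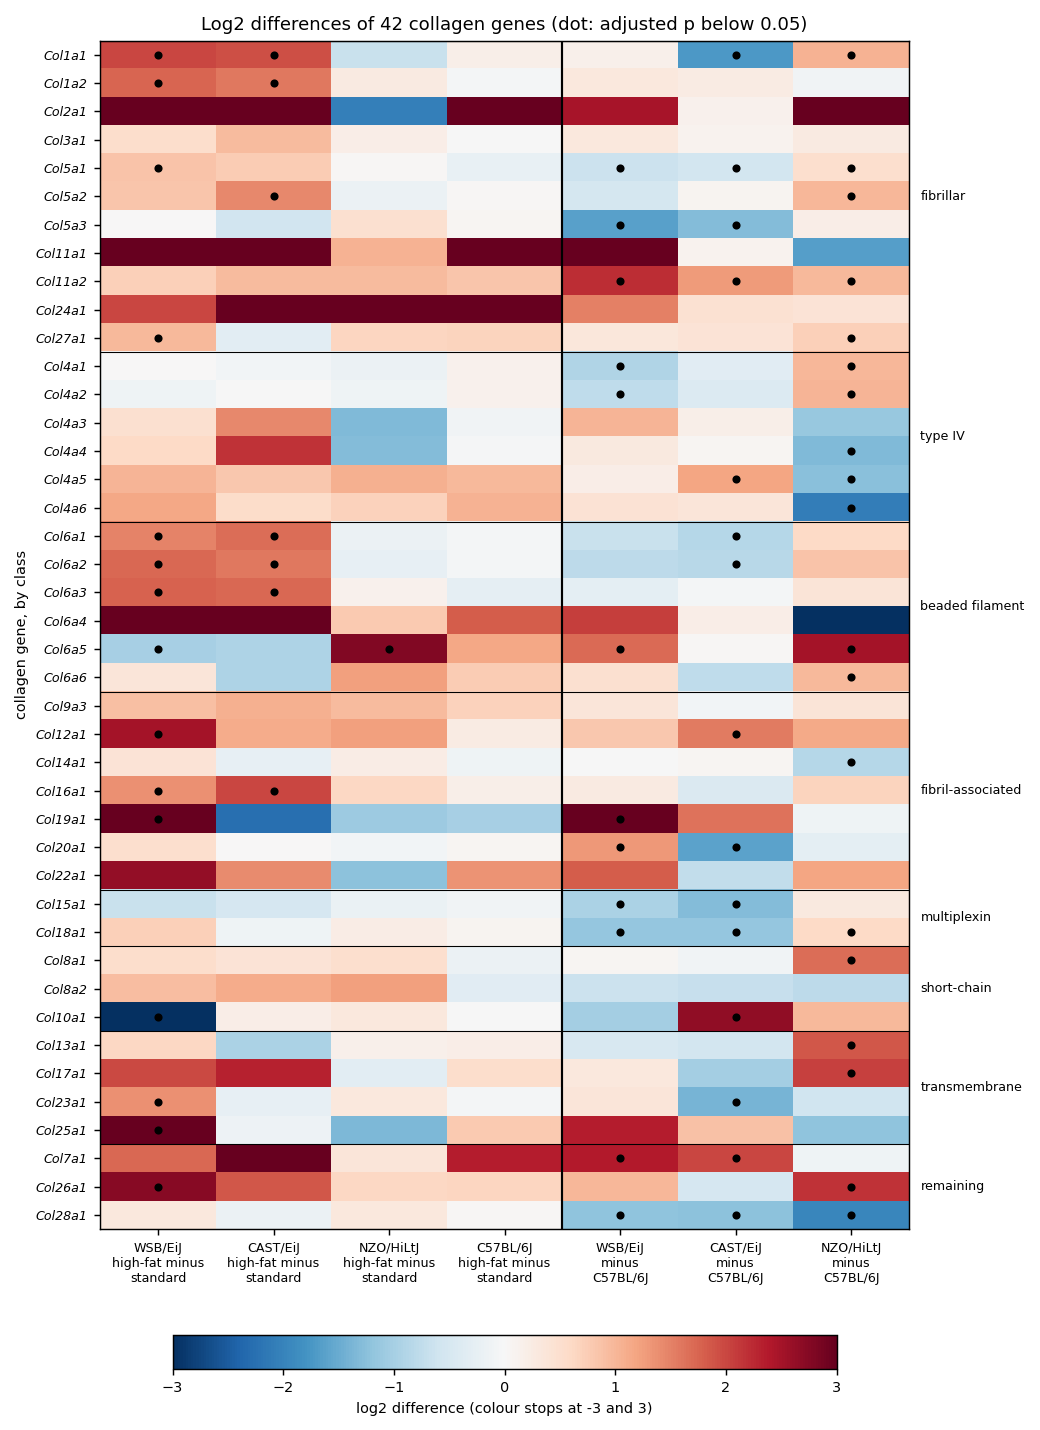
Log2 fold changes of the 42 tested collagens (rows, by class) in 7 comparisons (columns), high-fat minus standard in each strain and strain minus C57BL/6J over both diets, with dots where the adjusted p is below 0.05 and the colour scale stopped at 3 in both directions. Reds fill most of the fibrillar and type VI rows in the WSB/EiJ and CAST/EiJ diet columns, while the C57BL/6J diet column has no dot.

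Type I collagen is the main fibril of connective tissue and is built from the chains encoded by Col1a1 and Col1a2. Promoter sequences of Col1a2 and of Col3a1 are shown because these genes, whose levels were the highest of the fibrillar class, changed to different extents with diet. Each is the 250 bases before and 50 bases after the gene's start from RefSeq (mouse build GRCm38.p6), on the plus strand at chr6:4505368-4505667 for Col1a2 and at chr1:45311288-45311587 for Col3a1, with CCAAT or its reverse complement ATTGG in capitals. A CCAAT box is a short promoter element that the factor NF-Y is known to bind, including in type I collagen promoters.
Col1a2: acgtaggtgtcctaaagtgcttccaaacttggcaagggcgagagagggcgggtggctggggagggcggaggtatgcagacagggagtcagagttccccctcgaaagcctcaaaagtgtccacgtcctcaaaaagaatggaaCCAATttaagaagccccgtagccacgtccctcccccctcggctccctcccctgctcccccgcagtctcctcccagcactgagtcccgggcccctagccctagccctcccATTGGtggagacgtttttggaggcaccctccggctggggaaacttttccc
Col3a1: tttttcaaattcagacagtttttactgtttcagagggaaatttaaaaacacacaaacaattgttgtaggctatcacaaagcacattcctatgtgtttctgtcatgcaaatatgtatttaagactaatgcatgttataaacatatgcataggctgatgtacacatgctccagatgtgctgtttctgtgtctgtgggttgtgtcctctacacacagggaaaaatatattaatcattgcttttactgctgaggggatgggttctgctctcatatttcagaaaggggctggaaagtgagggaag
Col1a2 has 2 matches to CCAAT on either strand and Col3a1 has none, while Col3a1 has 1 match to TATAAA or its reverse complement. Of the 44 members 35 had a promoter entry, of which 13 held CCAAT, 22 held the GC box GGGCGG and 5 held TATAAA in at least one entry, both strands searched. Among all 32851 promoters of that length the shares were 37.4%, 35.7% and 13.6%. A match is a run of letters and no evidence of a bound factor.

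Col1a2 rose on the high-fat diet in both wild-derived strains. In WSB/EiJ, Col1a2 was at 1414, 2017 and 1111 CPM after the high-fat diet, against 336, 475 and 549.8 CPM after the standard diet. In CAST/EiJ, Col1a2 was at 2531, 834 and 692 CPM after the high-fat diet, against 309, 667 and 376 CPM after the standard diet. In both strains each high-fat library lay above each standard library, and the CAST/EiJ high-fat group was spread widely by mouse 1. The log2 fold change was 1.74 ± 0.39 (SE here and below) for WSB/EiJ mice (adjusted p = 0.0084, edgeR) and 1.59 ± 0.39 for CAST/EiJ mice (adjusted p = 0.039). The WSB/EiJ call was lost without standard WSB/EiJ mouse 1 and held in the other 23 fits with 1 library left out, while the CAST/EiJ call held in 9 of 24. Without high-fat CAST/EiJ mouse 1 the CAST/EiJ value was 0.75 ± 0.28 (adjusted p = 0.22). In NZO/HiLtJ, Col1a2 was at 740.3, 693 and 577 CPM after the high-fat diet, against 558, 599 and 516 CPM after the standard diet, and in C57BL/6J at 587, 679 and 676 CPM after the high-fat diet, against 718, 749 and 555 CPM after the standard diet. The diets overlapped in both, with log2 fold changes of 0.26 ± 0.38 and -0.06 ± 0.38 that did not pass the test. Over strains the Col1a2 change was 0.88 ± 0.19 (adjusted p = 0.0060).

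Col1a1, the partner chain, followed the diet in WSB/EiJ and had the opposite sign in NZO/HiLtJ. In WSB/EiJ it stood at 723, 1045 and 612 CPM after the high-fat diet, against 159, 189 and 241 CPM after the standard diet. In CAST/EiJ it stood at 446, 99.2 and 89.8 CPM after the high-fat diet, against 31, 86.3 and 49.4 CPM after the standard diet. These groups did not overlap, and the log2 fold changes of 2.01 ± 0.48 for WSB/EiJ mice (adjusted p = 0.010) and 1.93 ± 0.47 for CAST/EiJ mice (adjusted p = 0.039) passed the test. In NZO/HiLtJ, Col1a1 was at 663, 555 and 522 CPM after the high-fat diet, against 919, 1023 and 811 CPM after the standard diet. All 3 NZO/HiLtJ high-fat libraries were below all 3 standard libraries, a log2 fold change of -0.66 ± 0.46 that did not pass (adjusted p = 0.56). In C57BL/6J, Col1a1 was at 343, 483 and 309 CPM after the high-fat diet, against 308, 345 and 356 CPM after the standard diet, which overlapped (0.17 ± 0.46). The diet effect on Col1a1 differed between strains (adjusted p = 0.047 for the F test), but the call held in 6 of 24 fits with 1 library omitted, with adjusted p between 0.0029 and 0.11, and was lost without the 6 libraries (0.090). In CAST/EiJ the change was 0.75 ± 0.31 without high-fat mouse 1 (adjusted p = 0.28), and its call held in 9 of 24 fits. The WSB/EiJ call was lost only without standard WSB/EiJ mouse 1.

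Strains also differed in the level of Col1a1, although over both diets not detectably in that of Col1a2. Over both diets Col1a1 was lower in CAST/EiJ than in C57BL/6J by a log2 fold change of -1.72 ± 0.33 (adjusted p = 0.00047) and higher in NZO/HiLtJ by 1.03 ± 0.33 (adjusted p = 0.029). The CAST/EiJ call held in all 24 fits with 1 library left out, the NZO/HiLtJ call in 18 of them. Over both diets Col1a2 and Col3a1 passed no test for a strain difference (adjusted p = 0.39 and 0.44 for the F test of any difference). On the high-fat diet alone, every WSB/EiJ library lay above every C57BL/6J library for both genes. The ratio of Col1a1 to Col1a2 per kb shows how the chains of type I collagen differed within each library. It was 0.461 to 0.497 in WSB/EiJ high-fat mice against 0.360 to 0.426 in standard-diet mice, and 0.107 to 0.159 against 0.0907 to 0.119 in CAST/EiJ. In NZO/HiLtJ it was 0.722 to 0.816 in high-fat mice against 1.42 to 1.54 in standard-diet mice, and in C57BL/6J 0.413 to 0.642 against 0.387 to 0.578. The 6 CAST/EiJ libraries had the 6 lowest ratios and the 6 NZO/HiLtJ libraries the 6 highest. The part of sequence differences between strains, which can change how many reads align to a gene, was not tested. The diets did not overlap within NZO/HiLtJ, where the ratio was lower on the high-fat diet, or within WSB/EiJ, where it was higher. For comparison, the ratio of Col4a1 to Col4a2 stayed between 1.09 and 1.5 and that of Col6a1 to Col6a2 between 1.04 and 1.58 in all 24 libraries. Within these narrower ranges the diets also did not overlap for Col4a1 to Col4a2 in WSB/EiJ. The same held for Col6a1 to Col6a2 in WSB/EiJ and NZO/HiLtJ.

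**Figure D2:**
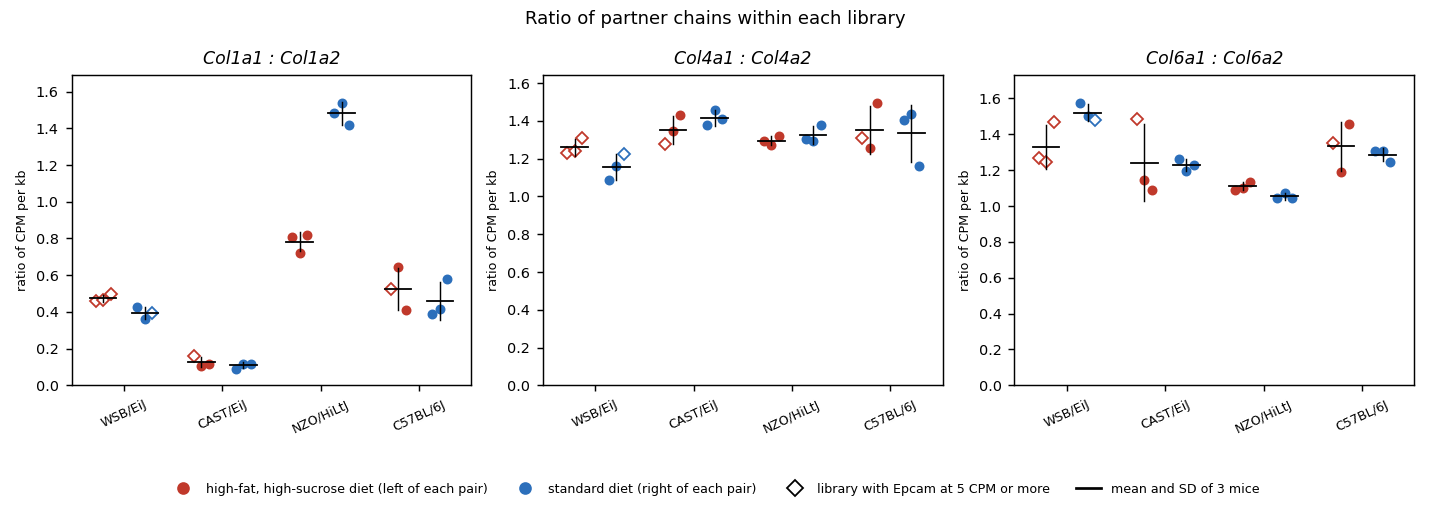
Ratio of Col1a1 to Col1a2, Col4a1 to Col4a2 and Col6a1 to Col6a2 per kb in each library by strain and diet (high-fat red, standard blue, bars mean ± SD, n = 3, open diamonds the 6 libraries that held Epcam). The first ratio runs from 0.0907 in a CAST/EiJ mouse to 1.54 in an NZO/HiLtJ mouse, while the others stay between 1.04 and 1.58.

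Col3a1, whose homotrimer mixes with type I fibrils, moved less. In WSB/EiJ, Col3a1 was at 2487, 2391 and 2000.4 CPM after the high-fat diet, against 1386, 1822 and 1543 CPM after the standard diet. In CAST/EiJ, Col3a1 was at 2899.8, 1879 and 2006 CPM after the high-fat diet, against 706, 1758 and 1066 CPM after the standard diet. The diets did not overlap in either strain, but the log2 fold changes of 0.53 ± 0.29 and 0.94 ± 0.29 did not pass the test (adjusted p = 0.19 and 0.061). In NZO/HiLtJ, Col3a1 was at 2300.1, 2042 and 1508 CPM after the high-fat diet, against 1896, 1772 and 1455 CPM after the standard diet, and in C57BL/6J at 1128, 1779.9 and 1641 CPM after the high-fat diet, against 1639, 1874 and 1071 CPM after the standard diet, both with overlap. The change averaged over strains was 0.41 ± 0.15 (adjusted p = 0.042), a call that held in 7 of the 24 fits with 1 library left out.

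Type V collagen is a minor component that starts type I fibrils and sets their width. Col5a1 rose in WSB/EiJ (0.85 ± 0.24, adjusted p = 0.022), with 83.7 to 139 CPM in high-fat against 57.6 to 64 CPM in standard-diet mice. Col5a2 rose in CAST/EiJ (1.45 ± 0.37, adjusted p = 0.043), where the libraries were 615, 169.5 and 203 CPM after the high-fat diet, against 86.2, 159 and 117 CPM after the standard diet. High-fat CAST/EiJ mouse 1 was far above both others, and without it the Col5a2 change was 0.62 ± 0.25 (adjusted p = 0.28). The call on Col5a2 held in 7 of 24 fits with 1 library left out and that on Col5a1 in 20, the losses being standard mice 1, 2 and 3 and high-fat mouse 2 of WSB/EiJ. Both were called in the average over strains (0.36 ± 0.12 and 0.53 ± 0.18), each in 10 of 24 fits. Col5a3, the chain known from fat and other specialised sites, passed the test for diet in no strain. It was lower in WSB/EiJ (-1.62 ± 0.39, adjusted p = 0.0043) and in CAST/EiJ (-1.31 ± 0.39, adjusted p = 0.012) than in C57BL/6J, the CAST/EiJ call being lost without high-fat C57BL/6J mouse 2. Col5a1 and Col5a2 were called between strains as well, with ranges here over the 24 fits. Against C57BL/6J, Col5a1 was lower in WSB/EiJ (-0.74 to -0.41, called in 24 fits) and in CAST/EiJ (-0.66 to -0.32, called in 23). In NZO/HiLtJ both were higher, Col5a1 by 0.41 to 0.74 (called in 15 fits) and Col5a2 by 0.89 to 1.12 (called in 24).

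The minor fibrillar genes were low and uneven. Col11a2, a type XI chain best known from cartilage, was higher in WSB/EiJ than in C57BL/6J (2.22 ± 0.36, adjusted p = 0.00015). The other strains also had more Col11a2 than C57BL/6J, with ranges over the 24 fits with 1 library left out. The difference was 0.79 to 1.49 for CAST/EiJ (called in 24 fits) and 0.84 to 1.15 for NZO/HiLtJ (called in 6). The Col11a2 diet change averaged over strains was 0.61 to 0.96 (called in 24). In WSB/EiJ, Col11a2 was at 8.36, 23.1 and 18.9 CPM after the high-fat diet, against 11.7, 8.54 and 10.4 CPM after the standard diet, and in C57BL/6J at 5.29, 2.05 and 3.86 CPM after the high-fat diet, against 2.06, 2.49 and 1.79 CPM after the standard diet. The lowest WSB/EiJ library, at 8.36 CPM, was above the highest C57BL/6J library, at 5.29 CPM. Col24a1, a fibrillar collagen described in developing bone and cornea, had its diet call averaged over strains (3.73 ± 0.97, adjusted p = 0.013) from uneven libraries. In NZO/HiLtJ, Col24a1 was at 2.81, 3.44 and 1.61 CPM after the high-fat diet, against 0.283, 0.156 and 0.0655 CPM after the standard diet, without overlap. In CAST/EiJ it was 9.81, 0.0783 and 0.0216 CPM after the high-fat diet, against 0.0532, 0.281 and 0.0812 CPM after the standard diet, and in C57BL/6J 6.73, 0.0183 and 0.125 CPM after the high-fat diet, against 0.0404, 0.224 and 0.0563 CPM after the standard diet, so that in each of these strains mouse 1 alone was high. In WSB/EiJ, Col24a1 was at 1.56, 5.91 and 1.03 CPM after the high-fat diet, against 0.0523, 0.0344 and 2.02 CPM after the standard diet. The average call was lost without high-fat mouse 1 of CAST/EiJ or of C57BL/6J. Without the 6 libraries the NZO/HiLtJ change of 3.95 ± 0.71 passed the test, which it did not with all libraries (adjusted p = 0.35). Col27a1 rose in WSB/EiJ (0.98 ± 0.30, adjusted p = 0.027), a call lost without mouse 1 or 2 of either diet. Col11a1 was called in the average over strains only (3.18 ± 0.88, adjusted p = 0.017) and lost that call without high-fat C57BL/6J mouse 1, and Col2a1, the main collagen of cartilage, never passed 0.443 CPM and was at 0 in 13 libraries.

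**Figure D3:**
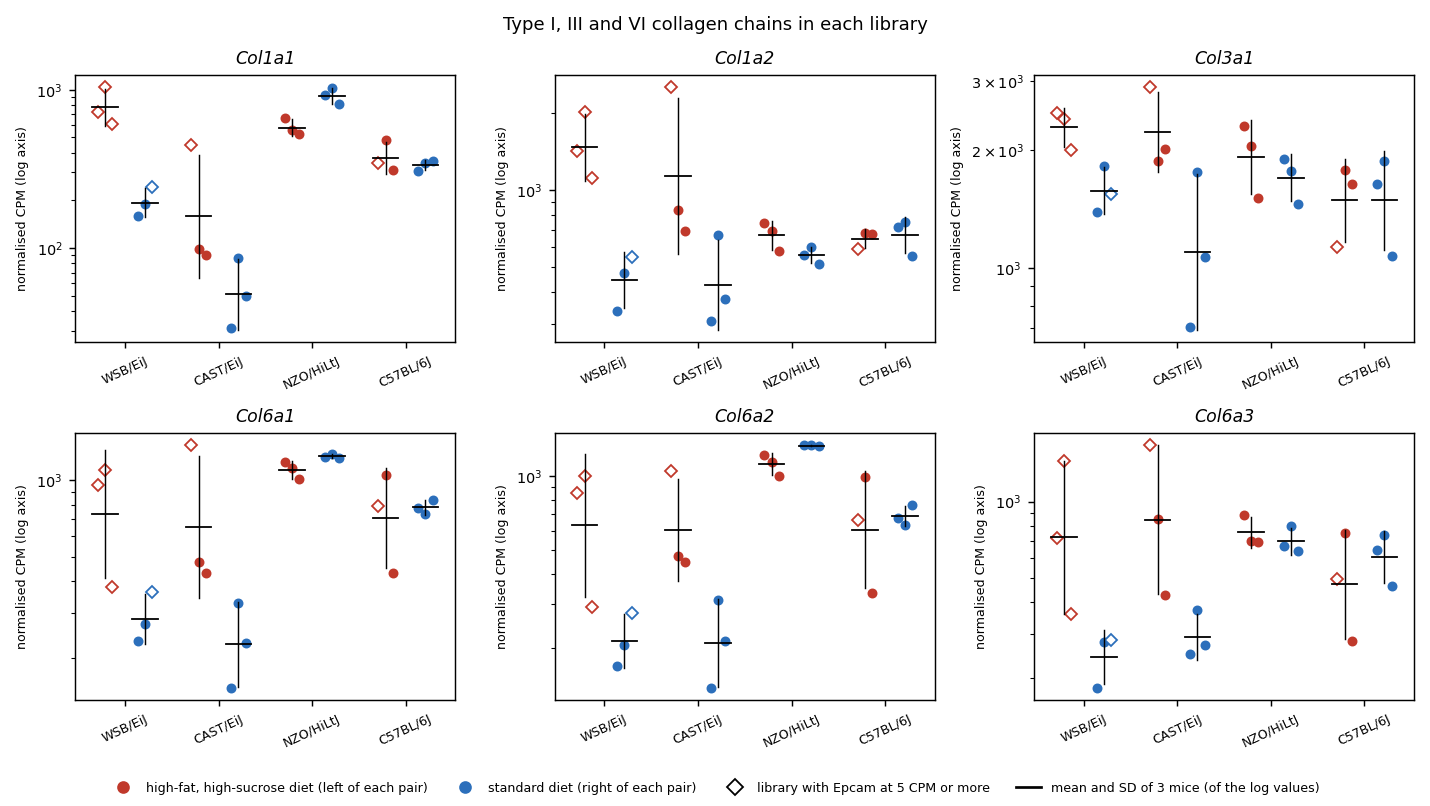
Normalised CPM (log axis) of Col1a1, Col1a2, Col3a1, Col6a1, Col6a2 and Col6a3 in each library by strain and diet (high-fat red, standard blue, lines mean and SD of log values, n = 3, open diamonds the 6 libraries that held Epcam). In WSB/EiJ and CAST/EiJ the high-fat libraries lie above the standard ones in all 6 genes, and NZO/HiLtJ Col1a1 lies lower on the high-fat diet.

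Type IV collagen has 6 chains in 3 pairs of neighbouring genes that start close together and point away from each other. Col4a1 and Col4a2 encode the chains found in nearly every basement membrane. Their promoters are shown because both genes differed between strains, in the same order. The RefSeq starts (GRCm38.p6) lie 21 bases apart on opposite strands, so the windows, chr8:11312777-11313076 on the minus strand for Col4a1 and chr8:11312555-11312854 on the plus strand for Col4a2, share 78 bases. Capitals mark CCAAT or ATTGG.
Col4a1: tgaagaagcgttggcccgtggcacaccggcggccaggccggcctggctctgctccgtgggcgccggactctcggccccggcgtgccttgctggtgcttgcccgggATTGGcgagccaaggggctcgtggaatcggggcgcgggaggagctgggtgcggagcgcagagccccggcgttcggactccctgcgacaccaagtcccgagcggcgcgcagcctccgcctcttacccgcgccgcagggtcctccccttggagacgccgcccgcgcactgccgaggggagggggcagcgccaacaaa
Col4a2: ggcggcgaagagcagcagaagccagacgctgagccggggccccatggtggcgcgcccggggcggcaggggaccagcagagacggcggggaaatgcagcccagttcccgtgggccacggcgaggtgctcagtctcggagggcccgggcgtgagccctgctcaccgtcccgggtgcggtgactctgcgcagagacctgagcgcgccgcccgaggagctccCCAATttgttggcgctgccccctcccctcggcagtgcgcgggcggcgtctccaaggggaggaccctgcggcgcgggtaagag
Each window has 1 such match. The starts of Col4a5 and Col4a6 lie 1343 bases apart, and their windows share none.

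Neither Col4a1 nor Col4a2 passed the test for diet in any strain, and both differed between strains. In NZO/HiLtJ Col4a1 stood at 1036, 967 and 929 CPM after the high-fat diet, against 1096, 1164 and 1031 CPM after the standard diet. In C57BL/6J it stood at 447, 821 and 348 CPM after the high-fat diet, against 532, 464 and 491 CPM after the standard diet. In WSB/EiJ, Col4a1 was at 276, 245 and 313 CPM after the high-fat diet, against 288, 315 and 226 CPM after the standard diet, and in CAST/EiJ at 382, 377 and 431 CPM after the high-fat diet, against 388, 441 and 434 CPM after the standard diet. Every NZO/HiLtJ library lay above every library of the other strains, and every WSB/EiJ library lay below every C57BL/6J library. Against C57BL/6J the Col4a1 difference was -0.90 ± 0.15 for WSB/EiJ mice (adjusted p = 0.00025), -0.34 ± 0.15 for CAST/EiJ mice (adjusted p = 0.086, not called) and 1.00 ± 0.15 in NZO/HiLtJ (adjusted p = 0.00011). Diet changes were between -0.17 and 0.12 in the 4 strains, none past the test.

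Col4a2 had the same order of strains. In NZO/HiLtJ, Col4a2 was at 781, 739.9 and 687 CPM after the high-fat diet, against 819, 878 and 730.0 CPM after the standard diet. In WSB/EiJ, Col4a2 was at 219, 192 and 233 CPM after the high-fat diet, against 258, 265 and 179.8 CPM after the standard diet, in CAST/EiJ at 291, 273 and 294 CPM after the high-fat diet, against 274, 295 and 300.5 CPM after the standard diet and in C57BL/6J at 334, 638 and 227 CPM after the high-fat diet, against 369, 315 and 412 CPM after the standard diet. NZO/HiLtJ was again above every other library. The differences from C57BL/6J were -0.77 ± 0.18 in WSB/EiJ (adjusted p = 0.0030) and 1.01 ± 0.18 in NZO/HiLtJ (adjusted p = 0.00038). The 4 calls on both genes held in all 24 fits with 1 library left out. The sum of 5 endothelial markers was 659 to 764.4 CPM on the high-fat and 691.6 to 719.6 CPM on the standard diet in NZO/HiLtJ. It was 396.9 to 534.3 and 447.7 to 485.9 CPM in WSB/EiJ and 175.9 to 328.2 and 288 to 316.6 CPM in CAST/EiJ. In C57BL/6J it was 491.9 to 689.7 and 567.1 to 660.5 CPM, overlapping NZO/HiLtJ on the high-fat diet. CAST/EiJ and not WSB/EiJ was lowest. Among these markers Tek was lower in NZO/HiLtJ (63.95 to 72.94 CPM) than in C57BL/6J (76.77 to 87.6 CPM). Pecam1, Cdh5, Kdr and Emcn reached higher in NZO/HiLtJ but overlapped with C57BL/6J over both diets. The part of these markers in the strain differences was not tested.

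Col4a5 and Col4a6, the chains of basement membranes around smooth muscle and in skin and kidney, were ordered differently. Both were lower in NZO/HiLtJ than in C57BL/6J (-1.26 ± 0.35, adjusted p = 0.013, and -2.08 ± 0.38, adjusted p = 0.00059), where Col4a1 and Col4a2 were higher. Col4a5 was also called higher in CAST/EiJ than in C57BL/6J, by 0.74 to 1.48 over the 24 fits with 1 library left out (called in 24). Col4a6 stood at 4.81, 6.2 and 5.13 CPM after the high-fat diet, against 3.16, 4.36 and 2.53 CPM after the standard diet in NZO/HiLtJ. In C57BL/6J it stood at 44.1, 9.5 and 23.7 CPM after the high-fat diet, against 11.6, 14 and 11.8 CPM after the standard diet, so the NZO/HiLtJ libraries lay below all of them. The Col4a5 call in NZO/HiLtJ and the average Col4a6 diet call were lost without high-fat C57BL/6J mouse 1. Both were called higher on the high-fat diet in the average over strains (0.97 ± 0.24, adjusted p = 0.012, and 0.86 ± 0.26, adjusted p = 0.023) but in no single strain. Col4a5 was 102, 50.4 and 118 CPM after the high-fat diet, against 32, 35.3 and 66.5 CPM after the standard diet in WSB/EiJ and 314, 85.2 and 93.7 CPM after the high-fat diet, against 64, 122 and 95 CPM after the standard diet in CAST/EiJ. In NZO/HiLtJ it was 34.1, 38.5 and 27.5 CPM after the high-fat diet, against 19, 16.1 and 12.6 CPM after the standard diet, and in C57BL/6J 129.5, 36 and 66.3 CPM after the high-fat diet, against 41.3, 43 and 33.6 CPM after the standard diet. The highest Col4a5 library, high-fat CAST/EiJ mouse 1, also held the most smooth muscle RNA (10860 CPM), and the diet change of CAST/EiJ was 0.81 ± 0.49 with it and -0.08 ± 0.44 without it. NZO/HiLtJ was the strain without overlap, and without the 6 libraries its Col4a5 change of 1.07 passed the test. Col4a3 and Col4a4, the chains of kidney and lung basement membrane, stayed between 0.464 and 23 CPM, and their highest level was in that same CAST/EiJ library, which held the kidney markers. In NZO/HiLtJ both had lower values on the high-fat diet without overlap (-1.33 and -1.29, adjusted p = 0.44 and 0.36), and both passed the test without the 6 libraries and without high-fat CAST/EiJ mouse 1 alone (adjusted p = 0.042 and 0.0082).

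**Figure D4:**
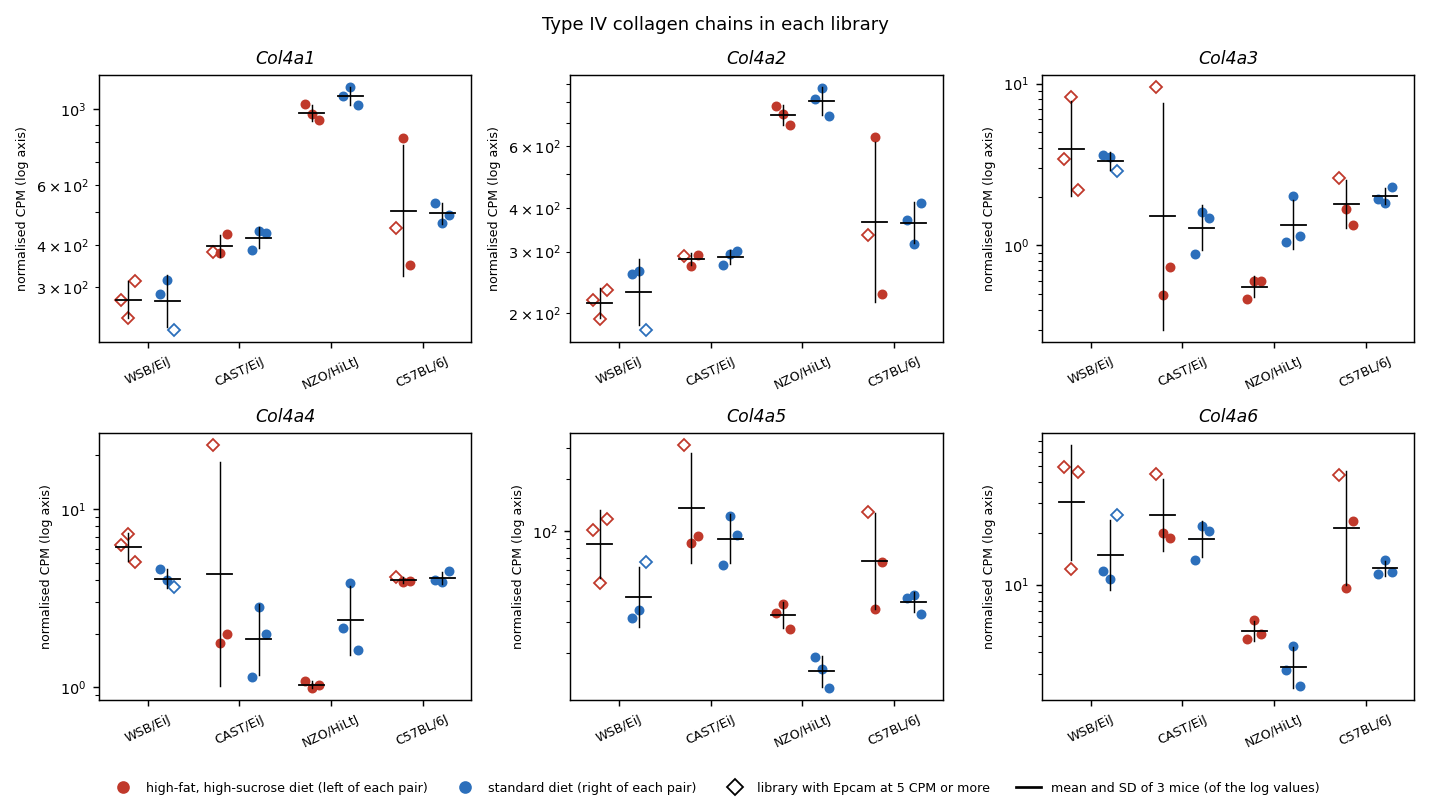
Normalised CPM (log axis) of Col4a1 to Col4a6 in each library by strain and diet (high-fat red, standard blue, lines mean and SD of log values, n = 3, open diamonds the 6 libraries that held Epcam). NZO/HiLtJ is the highest strain for Col4a1 and Col4a2, at 687 CPM or more for both, and the lowest for Col4a6.

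Type VI collagen joins the chains of Col6a1 and Col6a2 with another, longer chain that is usually that of Col6a3 and can be that of Col6a4, Col6a5 or Col6a6. The 3 main genes moved together with diet. Col6a1 in WSB/EiJ was 953, 1098 and 379.7 CPM after the high-fat diet, against 233, 271 and 363 CPM after the standard diet. In CAST/EiJ it was 1373, 476 and 429 CPM after the high-fat diet, against 153, 329 and 229.7 CPM after the standard diet. High-fat values were above standard ones in both, narrowly in WSB/EiJ mouse 3. In NZO/HiLtJ, Col6a1 was at 1178, 1113 and 1004 CPM after the high-fat diet, against 1235, 1265 and 1219.9 CPM after the standard diet, and in C57BL/6J at 793, 1044 and 430.3 CPM after the high-fat diet, against 774, 732 and 837 CPM after the standard diet. The log2 fold change was 1.49 ± 0.43 for WSB/EiJ mice (adjusted p = 0.023), 1.68 ± 0.44 for CAST/EiJ mice (adjusted p = 0.043), -0.18 ± 0.42 in NZO/HiLtJ and -0.05 ± 0.42 in C57BL/6J. The WSB/EiJ call was lost without standard mouse 1 or 2 or high-fat mouse 1 or 2 of that strain, and the CAST/EiJ call held in 6 of 24 fits.

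Col6a2 gave the same picture, with 852, 1001 and 293 CPM after the high-fat diet, against 168, 205 and 278 CPM after the standard diet in WSB/EiJ. In CAST/EiJ, Col6a2 was at 1048, 472 and 447 CPM after the high-fat diet, against 137, 312 and 212 CPM after the standard diet. In NZO/HiLtJ, Col6a2 was at 1225, 1145 and 1002 CPM after the high-fat diet, against 1343, 1336 and 1326 CPM after the standard diet, and in C57BL/6J at 666, 996 and 335 CPM after the high-fat diet, against 673, 635 and 763 CPM after the standard diet. Its change was 1.72 ± 0.44 for WSB/EiJ mice (adjusted p = 0.014) and 1.57 ± 0.44 for CAST/EiJ mice (adjusted p = 0.048), and in NZO/HiLtJ all high-fat libraries lay below all standard ones without passing the test (-0.25 ± 0.43). Col6a3, the chain whose cleaved end is the adipose signal endotrophin, was 720.1, 1447 and 361 CPM after the high-fat diet, against 184, 277 and 283 CPM after the standard diet in WSB/EiJ. Its changes were 1.76 ± 0.47 for WSB/EiJ mice (adjusted p = 0.017) and 1.73 ± 0.47 for CAST/EiJ mice (adjusted p = 0.046). Without high-fat CAST/EiJ mouse 1 the CAST/EiJ changes of Col6a1, Col6a2 and Col6a3 were 0.92, 1.05 and 1.1, and none passed. The WSB/EiJ calls of Col6a2 and Col6a3 were lost without standard mouse 1 or 2 or high-fat mouse 2, and the CAST/EiJ calls held in 5 of 24 fits. Col6a1 and Col6a2 were also lower in CAST/EiJ than in C57BL/6J (-0.86 ± 0.30, adjusted p = 0.031, and -0.83 ± 0.30, adjusted p = 0.037), in 16 and 15 of 24 fits. With the high-fat groups alone that Col6a1 difference was 0.01 (adjusted p = 0.99) and with the standard groups alone -1.72 ± 0.44 (adjusted p = 0.0063), a split chosen after the data were seen.

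Cell markers also differed between the diets. The smooth muscle sum was 1753, 1096 and 5556 CPM in WSB/EiJ high-fat mice against 91.8, 145.6 and 751.5 CPM in standard-diet mice, and the epithelial sum was 235.4, 402.4 and 665.2 against 20.18, 21.44 and 48.5 CPM. In CAST/EiJ the smooth muscle sum was 10860, 261.4 and 178.8 CPM in high-fat mice against 166.2, 543.7 and 148 CPM in standard-diet mice, which overlapped, and the epithelial sum was 1004, 35.66 and 37.1 against 14.08, 23.17 and 14.11 CPM, so that mouse 1 held most of both. The sum of 6 fibroblast and stromal markers was 584.3 to 815.2 CPM in WSB/EiJ high-fat against 318 to 458.8 CPM in standard-diet mice, and 544.9 to 650.1 against 362.1 to 542.2 CPM in CAST/EiJ. In NZO/HiLtJ it was 559.2 to 601.4 against 433.3 to 580.3 CPM and in C57BL/6J 757 to 880.8 against 675.1 to 815.2 CPM. The adipocyte sum was 3555 to 5259 CPM in high-fat against 7275 to 8993 CPM in standard-diet WSB/EiJ mice and 5820 to 7154 against 10110 to 10390 CPM in NZO/HiLtJ, both without overlap. It was 53.89, 7467 and 10330 against 9915 to 10400 CPM in CAST/EiJ and 5368 to 8126 against 8088 to 8443 CPM in C57BL/6J. The part of these markers in the collagen changes was not tested, apart from the values without the 6 libraries. All 3 WSB/EiJ high-fat libraries are among the 6, so no WSB/EiJ diet change has such a value. For that strain, a diet effect and a difference in marker RNA cannot be told apart.

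Col6a5 had the smallest adjusted p of the members for a difference between strains in the response to diet. Its promoter window is shown for that reason. It runs on the minus strand of chr9:105960594-105960893 (RefSeq, GRCm38.p6) and holds no CCAAT, so it has no capitals.
Col6a5: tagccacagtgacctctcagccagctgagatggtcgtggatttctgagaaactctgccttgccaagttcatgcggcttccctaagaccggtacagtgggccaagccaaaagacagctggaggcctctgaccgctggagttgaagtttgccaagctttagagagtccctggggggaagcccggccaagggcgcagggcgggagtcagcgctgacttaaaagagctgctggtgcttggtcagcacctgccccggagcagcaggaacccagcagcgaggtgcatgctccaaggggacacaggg
In NZO/HiLtJ, Col6a5 was at 48.9, 93.1 and 57 CPM after the high-fat diet, against 12.6, 7.42 and 8.85 CPM after the standard diet. In WSB/EiJ, Col6a5 was at 16.3, 6.74 and 7.99 CPM after the high-fat diet, against 17.8, 23 and 20.8 CPM after the standard diet. In CAST/EiJ, Col6a5 was at 3.97, 3.29 and 2.8 CPM after the high-fat diet, against 4.77, 6.55 and 7.94 CPM after the standard diet, and in C57BL/6J at 4.19, 7.85 and 8.14 CPM after the high-fat diet, against 3.05, 3.19 and 2.83 CPM after the standard diet. The diets did not overlap in any of the 4 strains, and high-fat values were higher in NZO/HiLtJ and C57BL/6J and lower in WSB/EiJ and CAST/EiJ. The log2 fold change was 2.79 ± 0.35 in NZO/HiLtJ (adjusted p = 0.00012), -0.99 ± 0.33 for WSB/EiJ mice (adjusted p = 0.040), -0.93 ± 0.33 for CAST/EiJ mice (adjusted p = 0.086, not called) and 1.15 ± 0.33 in C57BL/6J (adjusted p = 0.93, not called). The F test of the difference between strains gave an adjusted p of 0.0015, and the call held in all 24 fits with 1 library left out (adjusted p 0.00011 to 0.011) and without the 6 libraries (0.00042). The NZO/HiLtJ change was 2.46 to 3.04 over the 24 fits and passed in each, while the WSB/EiJ call was lost without any 1 of its standard libraries or high-fat mouse 2 or 3.

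On the standard diet the order of Col6a5 levels was WSB/EiJ, NZO/HiLtJ, CAST/EiJ and C57BL/6J, with ranges of 17.8 to 23, 7.42 to 12.6, 4.77 to 7.94 and 2.83 to 3.19 CPM. NZO/HiLtJ and CAST/EiJ overlapped there and the other neighbours did not. On the high-fat diet NZO/HiLtJ came first (48.9 to 93.1 CPM), WSB/EiJ (6.74 to 16.3 CPM) overlapped with C57BL/6J (4.19 to 8.14 CPM), and CAST/EiJ (2.80 to 3.97 CPM) was lowest and overlapped with none. Over both diets Col6a5 was higher in NZO/HiLtJ than in C57BL/6J by 2.49 ± 0.24 (adjusted p = 7.4e-07) and in WSB/EiJ by 1.69 ± 0.24 (adjusted p = 3.4e-05). A sum of 5 macrophage markers was 1224 to 1618 CPM in NZO/HiLtJ high-fat against 473.4 to 705.6 CPM in standard-diet mice, and its part in the Col6a5 change was not tested.

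Col6a6, its neighbour in the family, was 48.6 to 59.9 CPM in NZO/HiLtJ high-fat mice against 21.4 to 23.6 CPM in standard-diet mice. The change of 1.24 ± 0.43 did not pass with all libraries (adjusted p = 0.12) and passed without the 6. Col6a4 was uneven, and its values are given because they stood out once seen. It reached 946 CPM in high-fat CAST/EiJ mouse 1 and 206 and 399 CPM in mice 1 and 2 of the WSB/EiJ high-fat group, where mouse 3 had 0.251 CPM. Of the other libraries, high-fat C57BL/6J mouse 1 had 44.5 CPM, standard WSB/EiJ mouse 3 17.9 CPM and standard C57BL/6J mouse 2 12.7 CPM, and none of the rest passed 3.74 CPM. All but 1 of these 6 high libraries had Epcam at 5 CPM or more. Pgr, a reproductive tract marker, was at 178.7, 123.4, 90.28, 27.88, 13.24 and 18.1 CPM in these 6 libraries, in the order given. It was at 1.169 CPM in high-fat WSB/EiJ mouse 3. Pgr was also at 16.6 CPM in high-fat CAST/EiJ mouse 2 and 10.13 CPM in standard C57BL/6J mouse 1, where Col6a4 was low. The part of either marker in the Col6a4 values was not tested. The average diet call of Col6a4 (4.39 ± 1.18, adjusted p = 0.015) was lost without the 6 libraries that held Epcam, among them high-fat WSB/EiJ mouse 3.

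**Figure D5:**
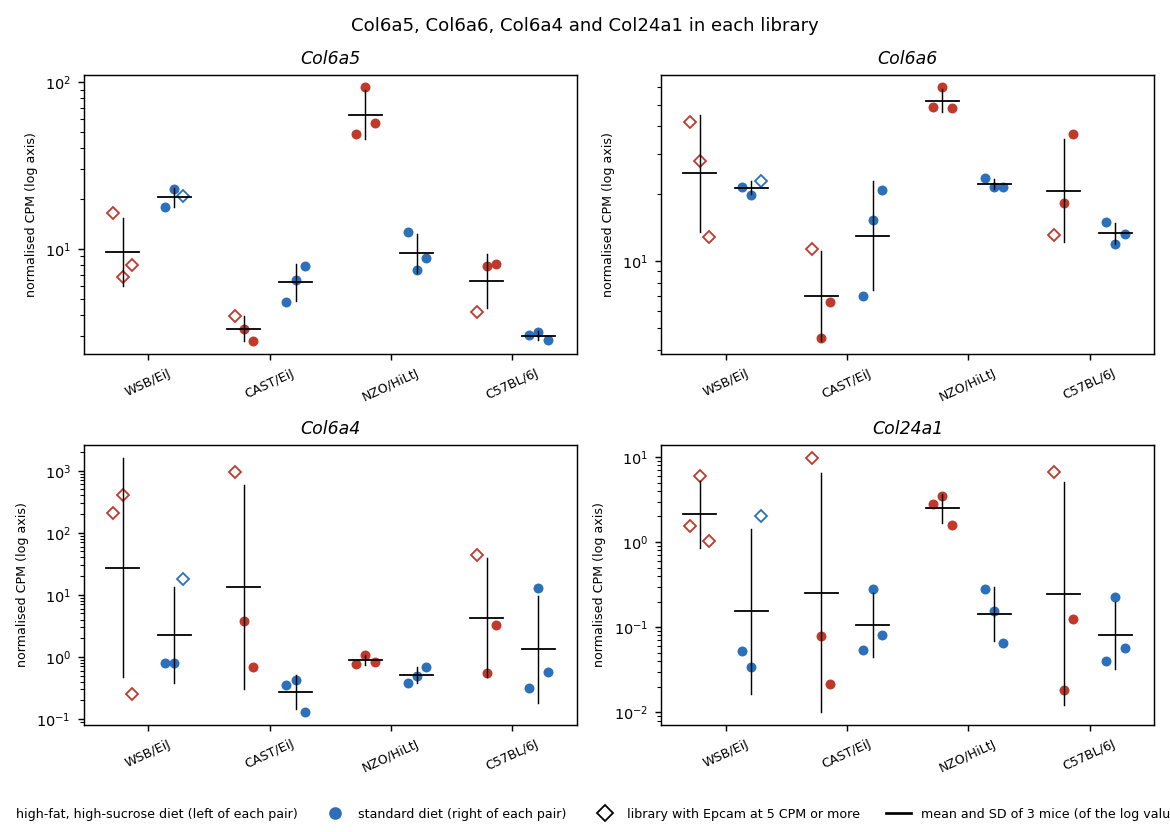
Normalised CPM (log axis) of Col6a5, Col6a6, Col6a4 and Col24a1 in each library by strain and diet (high-fat red, standard blue, lines mean and SD of log values, n = 3, open diamonds the 6 libraries that held Epcam). Col6a5 is higher on the high-fat diet in NZO/HiLtJ (48.9 to 93.1 against 7.42 to 12.6 CPM) and lower in WSB/EiJ and CAST/EiJ, and the high Col6a4 values are mostly open diamonds.

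Fibril-associated collagens sit on the surface of fibrils and link them to other matrix proteins. Col16a1 had the smallest adjusted p of all members in the average over strains (1.04 ± 0.19, adjusted p = 0.0024). In WSB/EiJ, Col16a1 was at 246, 161 and 119 CPM after the high-fat diet, against 46.9, 53.9 and 104 CPM after the standard diet. In CAST/EiJ, Col16a1 was at 211, 98.1 and 90.1 CPM after the high-fat diet, against 19.9, 47.8 and 32.3 CPM after the standard diet. In NZO/HiLtJ, Col16a1 was at 166, 174 and 187 CPM after the high-fat diet, against 126, 107 and 113 CPM after the standard diet, and in C57BL/6J at 110.2, 118 and 58.8 CPM after the high-fat diet, against 81.8, 91.2 and 81 CPM after the standard diet. The diets overlapped in C57BL/6J only, and the changes of 1.36 ± 0.38 for WSB/EiJ mice (adjusted p = 0.020) and 2.0 ± 0.39 for CAST/EiJ mice (adjusted p = 0.027) passed the test. Col16a1 was the sole CAST/EiJ collagen still called without the 6 libraries, at 1.5 ± 0.29 (adjusted p = 0.019), but with only high-fat CAST/EiJ mouse 1 left out its 1.49 ± 0.36 did not pass (adjusted p = 0.082). Its CAST/EiJ call was also lost without any 1 standard library of the strain, and its WSB/EiJ call without standard mouse 1 or 2 or high-fat mouse 1 or 2.

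Col12a1, which links fibrils in tendon and other loaded tissue, rose in WSB/EiJ (2.49 ± 0.66, adjusted p = 0.016). Its libraries there were 17.9, 19.4 and 87.6 CPM after the high-fat diet, against 4.34, 4.56 and 13.4 CPM after the standard diet, with high-fat mouse 3 far above the others. That call was lost without high-fat mouse 3 or standard mouse 1 or 2. In NZO/HiLtJ they were 39.4, 36.2 and 26.4 CPM after the high-fat diet, against 13.9, 15.2 and 14.2 CPM after the standard diet, without overlap, a change of 1.23 ± 0.63 that did not pass with all libraries (adjusted p = 0.37) and passed without the 6 (adjusted p = 0.00038). In CAST/EiJ, Col12a1 was at 87.5, 15.2 and 27.2 CPM after the high-fat diet, against 16.9, 21.8 and 21.3 CPM after the standard diet, and in C57BL/6J at 18.4, 7.31 and 6.87 CPM after the high-fat diet, against 8.53, 9.96 and 9.17 CPM after the standard diet. The call averaged over strains, 1.27 ± 0.32 (adjusted p = 0.011), held in all 24 fits with 1 library left out. Without the 6 libraries it was lost, and the values of 87.6 and 87.5 CPM were both in libraries among them. Col14a1, the most abundant of this group, passed the test for diet in no strain. In WSB/EiJ, Col14a1 was at 173, 85.1 and 308 CPM after the high-fat diet, against 107, 152 and 168 CPM after the standard diet. In CAST/EiJ, Col14a1 was at 61.9, 218 and 199 CPM after the high-fat diet, against 155, 237 and 176 CPM after the standard diet. In NZO/HiLtJ, Col14a1 was at 88.7, 92.2 and 117 CPM after the high-fat diet, against 99.1, 81.3 and 73.2 CPM after the standard diet, and in C57BL/6J at 146, 159 and 173 CPM after the high-fat diet, against 159, 165 and 194 CPM after the standard diet. Its level was lower in NZO/HiLtJ than in C57BL/6J (-0.86 ± 0.28, adjusted p = 0.032), with every NZO/HiLtJ library below every C57BL/6J library, and the call held in 15 of 24 fits.

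Col20a1 differed between strains and passed the test for diet in none. In WSB/EiJ, Col20a1 was at 7.57, 4.21 and 12.1 CPM after the high-fat diet, against 3.92, 5.77 and 7.08 CPM after the standard diet. In CAST/EiJ, Col20a1 was at 1.17, 0.763 and 0.711 CPM after the high-fat diet, against 0.71, 1.27 and 0.649 CPM after the standard diet, in NZO/HiLtJ at 2.51, 1.42 and 2.46 CPM after the high-fat diet, against 2.36, 2.52 and 1.9 CPM after the standard diet and in C57BL/6J at 3.65, 2.17 and 2.47 CPM after the high-fat diet, against 2.82, 2.94 and 2.18 CPM after the standard diet. The WSB/EiJ libraries lay above and the CAST/EiJ libraries below all those of C57BL/6J. Against C57BL/6J it was higher in WSB/EiJ (1.30 ± 0.26, adjusted p = 0.0010) and lower in CAST/EiJ (-1.62 ± 0.26, adjusted p = 8.3e-05), and both calls held in all 24 fits with 1 library left out. The remaining fibril-associated genes Col9a3, Col19a1 and Col22a1 reached at most 4.55 CPM. The WSB/EiJ diet call of Col19a1 (adjusted p = 0.019) rested on 4.55 CPM in high-fat mouse 2, the library with brain markers, beside 0.0134 and 0.304 CPM in the other two.

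Col15a1 and Col18a1 encode multiplexins, basement-membrane-linked collagens whose ends carry heparan or chondroitin chains and, in Col18a1, release endostatin. Both were lower in the wild-derived strains. Col15a1 was 459, 276 and 383 CPM after the high-fat diet, against 678, 607 and 493 CPM after the standard diet in WSB/EiJ. In CAST/EiJ, Col15a1 was at 145, 303 and 489 CPM after the high-fat diet, against 314, 506 and 508 CPM after the standard diet. In NZO/HiLtJ, Col15a1 was at 1145, 959.8 and 987 CPM after the high-fat diet, against 1149, 1209.7 and 1216 CPM after the standard diet, and in C57BL/6J at 725, 1222 and 679 CPM after the high-fat diet, against 869, 776 and 1200.0 CPM after the standard diet. Every WSB/EiJ and CAST/EiJ library lay below every C57BL/6J library, standard WSB/EiJ mouse 1 by the smallest margin (678 against 679 CPM). The differences from C57BL/6J were -0.96 ± 0.24 for WSB/EiJ mice (adjusted p = 0.0055) and -1.29 ± 0.24 for CAST/EiJ mice (adjusted p = 0.00029). Col15a1 had lower values on the high-fat diet in all 4 strains, by -0.67, -0.50, -0.21 and -0.12 in WSB/EiJ, CAST/EiJ, NZO/HiLtJ and C57BL/6J, and none of these nor the average (-0.37 ± 0.17, adjusted p = 0.093) passed the test.

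Col18a1 stood at 186, 77.6 and 120.5 CPM after the high-fat diet, against 69.1, 68.7 and 94.5 CPM after the standard diet in WSB/EiJ. In CAST/EiJ, Col18a1 was at 84.8, 91.3 and 112 CPM after the high-fat diet, against 72.5, 127 and 115 CPM after the standard diet. In NZO/HiLtJ, Col18a1 was at 411, 368 and 326 CPM after the high-fat diet, against 309.9, 329 and 302 CPM after the standard diet, and in C57BL/6J at 248, 295 and 145 CPM after the high-fat diet, against 225, 167 and 263 CPM after the standard diet. WSB/EiJ and C57BL/6J overlapped through high-fat WSB/EiJ mouse 1, and CAST/EiJ lay below C57BL/6J in every library. It was lower than in C57BL/6J in WSB/EiJ (-1.17 ± 0.21, adjusted p = 0.00037) and CAST/EiJ (-1.16 ± 0.21, adjusted p = 0.00021) and higher in NZO/HiLtJ (0.60 ± 0.20, adjusted p = 0.040). The WSB/EiJ and CAST/EiJ calls on both multiplexins held in all 24 fits with 1 library left out, and the NZO/HiLtJ call on Col18a1 held in 15.

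Among the short-chain collagens, Col8a1, a chain of the hexagonal lattice under endothelium, was higher in NZO/HiLtJ than in C57BL/6J (1.67 ± 0.28, adjusted p = 0.00026). In NZO/HiLtJ, Col8a1 was at 8.32, 8.16 and 13.4 CPM after the high-fat diet, against 7.83, 7.28 and 5.93 CPM after the standard diet, and in C57BL/6J at 2.63, 3.14 and 1.64 CPM after the high-fat diet, against 2.82, 3.02 and 2.52 CPM after the standard diet, so the strains did not overlap. In WSB/EiJ, Col8a1 was at 1.79, 2.08 and 6.01 CPM after the high-fat diet, against 1.67, 2.79 and 2.39 CPM after the standard diet and in CAST/EiJ at 3.58, 2.7 and 2.18 CPM after the high-fat diet, against 1.67, 2.91 and 1.77 CPM after the standard diet. Col8a2, its partner, was 5.95, 3.08 and 9.74 CPM after the high-fat diet, against 3.26, 3.37 and 3.28 CPM after the standard diet in WSB/EiJ. In CAST/EiJ, Col8a2 was at 5.19, 7.28 and 7.03 CPM after the high-fat diet, against 2.59, 3.74 and 2.61 CPM after the standard diet. In NZO/HiLtJ, Col8a2 was at 3.24, 4.01 and 12 CPM after the high-fat diet, against 3.41, 2.18 and 2.62 CPM after the standard diet, and in C57BL/6J at 3.8, 6.54 and 8.72 CPM after the high-fat diet, against 7.59, 7.93 and 8.72 CPM after the standard diet. On the standard diet all 3 C57BL/6J libraries lay above all 9 of the other strains, and the average diet call was 0.73 ± 0.22 (adjusted p = 0.022). Col10a1, the collagen of growth-plate cartilage, was near 0 everywhere. It was called higher in CAST/EiJ, with 0.124 to 0.298 CPM, than in C57BL/6J, with 0.0135 to 0.0548 CPM (adjusted p = 0.00020). In WSB/EiJ it was 0.0134, 0 and 0 CPM after the high-fat diet, against 0.105, 0.0172 and 0.0412 CPM after the standard diet, a call lower on the high-fat diet (adjusted p = 0.024). No fold is given for either call at these levels.

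Transmembrane collagens were scarce. Col13a1 was higher in NZO/HiLtJ, with 7.02, 4.97 and 9.94 CPM after the high-fat diet, against 7.67, 6.16 and 6 CPM after the standard diet, than in C57BL/6J, with 2.62, 1.86 and 1.66 CPM after the high-fat diet, against 2.28, 1.54 and 1.49 CPM after the standard diet (1.87 ± 0.45, adjusted p = 0.0051). In WSB/EiJ, Col13a1 was at 1.08, 3.33 and 0.635 CPM after the high-fat diet, against 0.645, 1.12 and 1.53 CPM after the standard diet, and in CAST/EiJ at 0.135, 1.74 and 0.949 CPM after the high-fat diet, against 1.86, 1.6 and 1.98 CPM after the standard diet. Every NZO/HiLtJ library, at 4.97 CPM or more, lay above every other library. Col23a1 was 8.71, 1.81 and 2.13 CPM after the high-fat diet, against 0.855, 1.39 and 2.65 CPM after the standard diet in WSB/EiJ, where its diet call (adjusted p = 0.0496) held in 5 of 24 fits with 1 library left out. In CAST/EiJ, Col23a1 was at 0.956, 0.685 and 0.474 CPM after the high-fat diet, against 0.745, 1.01 and 0.763 CPM after the standard diet. In NZO/HiLtJ, Col23a1 was at 1.38, 1.5 and 1.62 CPM after the high-fat diet, against 1.47, 0.969 and 1.18 CPM after the standard diet, and in C57BL/6J at 2.19, 2.01 and 1.74 CPM after the high-fat diet, against 1.81, 2.48 and 1.94 CPM after the standard diet. CAST/EiJ was lower than C57BL/6J (-1.39 ± 0.34, adjusted p = 0.0034) without overlap. Col17a1, a hemidesmosome collagen of epithelium, and Col25a1, known from neurons, stayed at or below 2.83 and 9.58 CPM. Col17a1 was higher in NZO/HiLtJ (2.05 ± 0.60, adjusted p = 0.019), a call lost without standard C57BL/6J mouse 1 or 2, and the highest Col25a1 value was in the WSB/EiJ high-fat library with brain markers.

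Of the remaining members, Col7a1 anchors epithelial basement membranes to the tissue beneath. It was 24.2, 9.62 and 3.57 CPM after the high-fat diet, against 2.44, 2.34 and 6.53 CPM after the standard diet in WSB/EiJ. In CAST/EiJ, Col7a1 was at 42.9, 1.68 and 1.19 CPM after the high-fat diet, against 1.92, 2.5 and 1.12 CPM after the standard diet, in NZO/HiLtJ at 1.07, 1.56 and 1.48 CPM after the high-fat diet, against 0.782, 1.08 and 1.34 CPM after the standard diet and in C57BL/6J at 7.18, 0.603 and 1.2 CPM after the high-fat diet, against 0.607, 0.474 and 0.675 CPM after the standard diet. Its 4 highest values, 42.9, 24.2, 9.62 and 7.18 CPM, were in high-fat libraries among the 6 that held Epcam, and without those libraries its average diet call (1.87 ± 0.53, adjusted p = 0.019) was lost. Col28a1, a collagen of peripheral nerve, was lower than in C57BL/6J in all 3 other strains (-1.21 ± 0.42 in WSB/EiJ, -1.23 ± 0.42 in CAST/EiJ and -1.96 ± 0.43 in NZO/HiLtJ), in 15, 21 and 24 of 24 fits. In WSB/EiJ, Col28a1 was at 1.66, 1.32 and 2.54 CPM after the high-fat diet, against 1.01, 1.98 and 1.46 CPM after the standard diet. In CAST/EiJ, Col28a1 was at 0.108, 2.09 and 2.44 CPM after the high-fat diet, against 1.17, 2.2 and 1.85 CPM after the standard diet. In NZO/HiLtJ, Col28a1 was at 0.97, 1.15 and 1.17 CPM after the high-fat diet, against 0.917, 0.766 and 0.969 CPM after the standard diet, and in C57BL/6J at 4.13, 4.71 and 2.79 CPM after the high-fat diet, against 3.68, 3.77 and 3.94 CPM after the standard diet. Each of the 6 C57BL/6J libraries lay above each of the 18 others. Col26a1 was at most 3.28 CPM and was called higher on the high-fat diet in WSB/EiJ (2.73 ± 0.81, adjusted p = 0.025, lost without mouse 1 or 2 of either diet, with values of 1.72 to 3.23 over the 24 fits) and in the average over strains (1.47 ± 0.40, adjusted p = 0.015).

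Over both diets, 12 of 42 collagens differed between WSB/EiJ and C57BL/6J, 5 higher and 7 lower, where 13.2% of all genes were higher and 16.4% lower (29.5% in all). CAST/EiJ had 5 higher and 10 lower (all genes 18.7% and 20.2%, 39.0% in all) and NZO/HiLtJ 14 higher and 5 lower (11.9% and 11.5%, 23.4% in all). Any difference between the 4 strains was called for 35 of 42 collagens and for 68.2% of all genes. The median log2 difference of the collagens from C57BL/6J was 0.32 in WSB/EiJ, -0.07 in CAST/EiJ and 0.46 in NZO/HiLtJ, beside 0.03, 0.02 and -0.03 for all genes. In NZO/HiLtJ the medians were 0.51 for fibrillar and 0.60 for other collagens. Type IV genes went both ways there, with Col4a1 and Col4a2 higher, 3 genes lower and a median of -1.20, while the summed type IV level was 268 ± 15.9 and 295 ± 22.1 CPM per kb in NZO/HiLtJ (high-fat and standard), against 160 ± 65.3 and 140 ± 10.3 in C57BL/6J. The NZO/HiLtJ count was 12 without standard C57BL/6J mouse 1 or high-fat mouse 3 and 11 without standard C57BL/6J mouse 2, and the CAST/EiJ count was 9 without high-fat C57BL/6J mouse 2. Within 1 diet, a split chosen after the data were seen, the counts on the high-fat diet were 9 in WSB/EiJ, 10 in CAST/EiJ and 5 in NZO/HiLtJ, where 17.9%, 25.9% and 14.9% of all genes were called. On the standard diet they were 10, 12 and 7, beside 22%, 28.0% and 8.36% of all genes. The 3 strain comparisons share the C57BL/6J libraries.

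Genes that make, break down or bind collagen were read from lists written with earlier results of these data known. Of 28 genes for collagen synthesis and crosslinking, 10 rose with the high-fat diet in the average over strains and none fell, beside 17.1% of all genes that rose and 11.8% that fell. The smallest adjusted p were those of the prolyl hydroxylases P4ha1 (0.52 ± 0.08, adjusted p = 0.0013) and P3h3 (0.43 ± 0.07) and the procollagen proteinase Bmp1 (0.47 ± 0.09). Of 11 breakdown genes, 6 rose, led by the collagen-degrading protease Ctsk (1.16 ± 0.17, adjusted p = 0.00083), the inhibitor Timp1 (1.22 ± 0.21) and the uptake receptor Mrc2 (0.59 ± 0.13), and Mmp9 fell (-1.22 ± 0.26, adjusted p = 0.0059). Of 8 tested receptors 3 rose (Itga2, Ddr1 and Lair1), of 10 basement membrane partners 1 (Lama5) and of 6 fibril proteoglycans 2 (Bgn and Lum), and none of these 3 lists had a gene that fell. For the basement membrane partners, 1 of 10 is below the share of all genes that rose. In single strains 10 synthesis genes rose in WSB/EiJ, 6 in CAST/EiJ and 3 in NZO/HiLtJ (Loxl3, P3h3 and Adamts14), and none in C57BL/6J. Of all genes 12.9% rose in WSB/EiJ, 3.27% in CAST/EiJ, 2.95% in NZO/HiLtJ and 0.00998% in C57BL/6J. The diet effect differed between strains for P4ha2, Plod2 and Ctsk (adjusted p = 0.030, 0.046 and 0.044).

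Between strains, 13 of 28 synthesis genes were lower in WSB/EiJ than in C57BL/6J and none higher, beside 16.4% of all genes lower and 13.2% higher. The first were the procollagen proteinase Adamts2 (-1.49 ± 0.19, adjusted p = 1.0e-05), the lysyl hydroxylase Plod3 (-0.86 ± 0.12) and the lysyl oxidase Loxl4 (-1.78 ± 0.27). In WSB/EiJ 7 of 10 basement membrane partners were lower as well, first the laminin chain gene Lamb2 (-0.68 ± 0.10), the perlecan gene Hspg2 (-1.03 ± 0.16) and the nidogen gene Nid2 (-1.58 ± 0.27). CAST/EiJ had 9 lower synthesis genes and 1 higher (20.2% and 18.7% of all genes), first P4hb (-1.02 ± 0.10), Fkbp10 (-1.27 ± 0.16) and P4ha2 (-1.21 ± 0.15), with lower Sparc (-1.74 ± 0.17), Nid1 (-1.47 ± 0.21) and Nid2 (-1.11 ± 0.27) among the basement membrane partners and higher Lamb1 (0.35 ± 0.12). In NZO/HiLtJ, where Col4a1 and Col4a2 were high, Sparc, a type IV collagen chaperone and binder, was higher (1.12 ± 0.17, adjusted p = 0.00010), as was Hspg2 (0.71 ± 0.16, adjusted p = 0.0038), and no partner was lower. The synthesis genes of NZO/HiLtJ were split, with 4 higher and 5 lower, beside 11.9% and 11.5% of all genes.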

How the data were processed

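Poly(A) RNA-seq counts of 24 female mice were read from the deposited gene table of estimated counts. The submitters' processing notes name RSEM 1.2.1, Bowtie 0.12.8, CASAVA 1.8.0 and the builds NCBIM37 and mm9, without their role or order, and the annotation used is not given in the sources used here. The expected counts deposited by the authors were already whole numbers. A deposited table of normalised signal equals each count divided by its library's 75th percentile within 0.0005 and was used only for that check. Both tables had 0 unused columns. Symbols for 32919 of 37991 gene identifiers (86.65%) came from an annotation table, and identifiers lacking one took 1.515% to 2.352% of counts. Strandedness of counting is not stated, so overlapping, antisense and near-identical genes cannot be told apart. How alignment treated sequence differences between strains was not examined. A strain difference in level and one in the share of reads aligned therefore cannot be told apart here. The mice are separate animals per the labels, mouse numbers follow accession order and are only names, and libraries of a group differed by more than sampling noise (chi-square per degree of freedom 22.1 to 1487.9).

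Genes with low counts were removed with edgeR's group-based filter (20035 kept, 17956 removed), and edgeR 4.0.16 in R 4.3.3 fitted 8 strain-by-diet groups with TMM scaling (common biological variation 40.06%, 16 residual degrees of freedom). The quasi-likelihood F test with Benjamini-Hochberg adjustment over all tested genes was used, at a threshold of 0.05, and the standard error is the absolute log2 fold change divided by the square root of F. CPM of collagens use TMM-scaled totals, and marker sums and Epcam use unscaled totals. Lengths are the longest coding transcript of GENCODE M21 basic. The table depth limits low genes such as Col10a1, and no counting intervals are given because each group has replicates. On simulated counts for the WSB/EiJ diet comparison with 20035 genes, the test recovered 46 of 105 genes changed by 1 and 75 of 95 changed by 2 on the log2 scale, with 5 false calls. DESeq2 made 42 false calls on the same counts and limma-voom 6. Only genes with a mean above 1 CPM were changed, so recovery of lower genes was not measured.

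Members and gene lists were chosen with earlier results of these data known. Values per library are given for the 2 highest members per kb of each class or subclass and for up to 5 called members per comparison with the smallest adjusted p. From each pathway list, up to 3 genes per direction with the smallest adjusted p are named, and a signalling list is not reported here. Alternatives were limma-voom (limma 3.58.1), DESeq2 1.42.0, other scalings, no filter, smaller sets of groups, and each library left out in turn. Leaving out the 6 libraries with Epcam, and strain comparisons within 1 diet, were chosen after seeing the data.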

Additional observations from a re-analysis of the deposited data

Results flagged for a closer look

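The diet effect on Col6a5 differed between strains (adjusted p = 0.0015, edgeR quasi-likelihood F test with Benjamini-Hochberg adjustment). Col6a5 averaged 66.4 ± 23.5 CPM in NZO/HiLtJ high-fat mice and 9.62 ± 2.66 CPM in NZO/HiLtJ standard-diet mice (SD, n = 3 each). It averaged 10.3 ± 5.19 CPM in high-fat and 20.5 ± 2.60 CPM in standard-diet WSB/EiJ mice, and 3.35 ± 0.588 and 6.42 ± 1.59 CPM in CAST/EiJ. In C57BL/6J it averaged 6.73 ± 2.20 CPM in high-fat and 3.02 ± 0.182 CPM in standard-diet mice.

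The diet effect on Col1a1 also differed between strains (adjusted p = 0.0474, same test), but less firmly. That call held in 6 of 24 fits with 1 library left out. It was lost with upper-quartile scaling, with limma-voom, without the filter and without the 6 libraries that held Epcam. Col1a1 averaged 793 ± 225 CPM in high-fat and 197 ± 41.8 CPM in standard-diet WSB/EiJ mice, and 212 ± 203 and 55.6 ± 28.2 CPM in CAST/EiJ. It averaged 579.9 ± 73.6 CPM in high-fat and 918 ± 106 CPM in standard-diet NZO/HiLtJ mice, and 378 ± 92.4 and 337 ± 24.9 CPM in C57BL/6J (SD, n = 3 each).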

How the results depend on the processing

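Counts of called collagens moved with the processing, and the causes were not tested. For most of these settings the share of all genes called is not given here. A change of a count therefore cannot be read as particular to collagens. The average diet count of 22 was 10 with limma-voom and 4 without the 6 libraries that held Epcam (5 CPM or above). The count of 2 for a diet effect that differed between strains was 12 with DESeq2, 4 without the 6 libraries, and 1 with upper-quartile scaling, with limma-voom or without the filter. In CAST/EiJ the diet count of 7 was 15 with DESeq2, 1 with limma-voom, without the filter or without the 6 libraries, and 0 with the CAST/EiJ groups fitted alone. In NZO/HiLtJ the diet count of 1 was 2 with DESeq2, 10 without the 6 libraries and 13 with its groups fitted alone, and in WSB/EiJ the count of 15 was 2 with its groups alone. For strains, the CAST/EiJ count of 15 was 23 without the 6 libraries, and the NZO/HiLtJ count of 19 was 29 without them, 7 on the standard diet alone and 5 on the high-fat diet alone. Without the 6 libraries no WSB/EiJ high-fat library remains, so the WSB/EiJ diet comparison and that with C57BL/6J over both diets have no value there, and the standard-diet comparison with C57BL/6J was not run without them. With each library left out in turn, counts ranged from 17 to 25 for the average diet effect, 0 to 20 in WSB/EiJ, 0 to 17 in CAST/EiJ, 1 to 3 in NZO/HiLtJ, 0 in C57BL/6J, 1 to 7 for the difference between strains, 10 to 18 for WSB/EiJ, 9 to 19 for CAST/EiJ and 11 to 24 for NZO/HiLtJ against C57BL/6J, and 30 to 36 for any strain difference. Of single called genes over those fits, 1811 values kept direction and call, 373 lost the call and 0 reversed. The Col6a1 difference between CAST/EiJ and C57BL/6J reversed on the high-fat diet alone, at 0.00748 (adjusted p = 0.9931, edgeR). Under DESeq2 and RLE scaling 91 of 91 such gene calls held, under upper-quartile scaling 89, without the filter 76, with limma-voom 64, and without the 6 libraries 38 held and 26 were lost. DESeq2 made more false calls than edgeR on the simulated counts. No paired analysis was possible because the labels give no replicate numbers, and those used here follow accession order. Low depth limits Col10a1, Col19a1 and Col2a1, which were at 0 in some libraries.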

Other observations

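Other ratios between collagens per kb separated the diets in some strains. In WSB/EiJ the ratio of Col15a1 to Col18a1 was 2.67 to 3.85 in high-fat mice against 5.64 to 10.6 in standard-diet mice, and in NZO/HiLtJ 2.82 to 3.27 against 3.97 to 4.36. In WSB/EiJ the ratio of Col3a1 to Col1a2 was 1.14 to 1.73 against 2.70 to 3.96. In NZO/HiLtJ the ratio of Col6a5 to Col6a6 was 0.950 to 1.47 in high-fat mice against 0.327 to 0.504 in standard-diet mice, and in WSB/EiJ it was 0.227 to 0.588 against 0.781 to 1.095, in the opposite direction. The ratio of Col5a1 to Col5a2 was 0.405 to 0.416 against 0.326 to 0.382 in NZO/HiLtJ. That of Col4a3 to Col4a4 was 0.325 to 0.493 against 0.674 to 0.923 in CAST/EiJ. None of these groups overlapped, while in each strain not named for a ratio the diets overlapped. For Col4a5 to Col4a6 and Col6a3 to Col6a1 the diets overlapped in every strain. The ratios were chosen after the data were seen and were not tested.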
